A study of Homo sapiens with 12 samples.

Results

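Cathepsins are the main proteases of the lysosome, and 10 of their genes were followed in cerebral organoids that lack FEZ1. The genes CTSA, CTSB, CTSC, CTSD, CTSF, CTSH, CTSK, CTSL, CTSS and CTSZ were found by symbol among the 28207 genes of a raw count table. They were chosen by the CTSF counts themselves, which were nearly lost in FEZ1 knockout organoids at both ages, so the difference in CTSF between genotypes is given below as a description without a test. The question was whether the other 9 genes changed with it. Of the 10 genes, 9 passed the filter on low counts and CTSS did not.

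The organoids, wildtype or FEZ1 knockout, were grown from the human embryonic stem cell line H1, which is an established line. FEZ1 encodes an adaptor protein that links cargo to kinesin motors in axons. RNA was taken on day 10 or day 60 of culture, with 4 libraries per genotype at day 10 and 2 per genotype at day 60, and no other treatment is named. Library totals ran from 15668253 to 22745658 counts. The labels say neither whether the libraries of a group were separate cultures nor how many knockout clones were used. The p-values therefore rest on a spread between libraries that may be technical. A code in each label, with no meaning stated, is B16 for all day 60 libraries. In both day 10 groups it is B16 for replicates 1 and 2, B27 for replicate 3 and B29 for replicate 4. All 7 neuroepithelial and all 8 neuronal markers examined had counts in every library. Levels are given in CPM, the usual counts relative to library size, here after scaling by TMM factors.

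Most cathepsins are cysteine proteases that are made as inactive precursors, sorted to lysosomes by mannose 6-phosphate receptors and activated by cleavage at acidic pH. CTSD is instead an aspartic protease and CTSA a serine carboxypeptidase that also shields the hydrolases GLB1 and NEU1 from degradation. In the brain the family clears proteins delivered by endocytosis and autophagy. Loss of CTSF or CTSD causes neuronal ceroid lipofuscinosis, a storage disease of neurons. Transcription of many lysosomal genes is driven by TFEB and its relatives, which bind a motif built around CACGTG.

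The sequences upstream of 3 cathepsin genes are shown because they hold this core, among them that of CTSF, the gene that chose the group. RefSeq promoter entries on GRCh38.p14 matched 7 of the 10 genes, with none for CTSB, CTSK and CTSS. Each run is the 250 bases before the gene start, read 5′ to 3′ on the gene's own strand, with CACGTG in capitals. CTSF lies on the minus strand at chr11:66568607-66568856, CTSA on the plus strand at chr20:45891085-45891334 and CTSD on the minus strand at chr11:1763928-1764177.
CTSF: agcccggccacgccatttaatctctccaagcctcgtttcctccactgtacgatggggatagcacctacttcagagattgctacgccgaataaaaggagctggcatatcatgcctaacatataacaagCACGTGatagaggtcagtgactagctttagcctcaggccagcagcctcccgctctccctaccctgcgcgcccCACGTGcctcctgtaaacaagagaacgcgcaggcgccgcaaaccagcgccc
CTSA: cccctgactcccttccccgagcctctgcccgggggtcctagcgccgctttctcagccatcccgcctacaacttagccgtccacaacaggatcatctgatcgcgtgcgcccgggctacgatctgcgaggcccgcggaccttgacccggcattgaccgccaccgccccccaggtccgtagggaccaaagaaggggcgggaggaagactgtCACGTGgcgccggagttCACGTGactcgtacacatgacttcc
CTSD: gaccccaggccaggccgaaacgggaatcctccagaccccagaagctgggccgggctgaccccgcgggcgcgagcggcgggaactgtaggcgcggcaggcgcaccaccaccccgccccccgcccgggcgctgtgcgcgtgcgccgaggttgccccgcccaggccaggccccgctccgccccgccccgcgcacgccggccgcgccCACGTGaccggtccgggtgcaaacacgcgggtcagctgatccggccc
CACGTG reads the same on both strands. It occurred 2 times in the CTSF run, 2 times in the CTSA run and 1 time in the CTSD run, and not in the runs of CTSC, CTSH, CTSL or CTSZ. Among 35116 upstream runs of the same length, 6.34% held it. That share is not matched for CpG, which the core contains. The 7 cathepsin runs held from 16 to 36 CpG, against a median of 11 over all runs. A match describes the letters in this window and does not show that a factor binds there. Of the 3 genes with the core, CTSF, which chose the group, was nearly lost in the knockout. CTSA and CTSD did not pass the test between genotypes, which 0.124% of all genes passed at day 10 and 0.0225% at day 60. With so few genes passing, this does not set them apart, and a link between the core and these levels was not tested.

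FEZ1 was read first as a check of the labels. At day 10 the 4 wildtype libraries held 40.5, 43.3, 45.5 and 49.0 CPM of FEZ1 and the 4 knockout libraries 22.7, 20.2, 20.02 and 19.4 CPM. At day 60 the wildtype libraries held 239.9 and 197 CPM and the knockout libraries 47.6 and 48.4 CPM. Every knockout library lay below every wildtype library of its day, as the labels say, although FEZ1 transcripts were still counted in all of them.

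Some libraries stood apart in ways that touch the cathepsins. Knockout replicate 1 of day 10 was the highest day 10 library for 7 of the 8 other cathepsins tested, and wildtype replicate 2 of day 60 was the highest day 60 library for all 8. Ribosomal protein genes took 13.2% of the counts of the first, and 7.95% to 9.91% of those of knockout replicates 2 to 4. Its 8 pigment cell markers summed to 755 CPM, against 419.7 to 504 CPM in the other knockout and 289.7 to 374 CPM in the wildtype libraries of day 10, with TYR at 0 in all wildtype ones. All 10 mesenchyme markers were counted in every day 60 library. Wildtype replicate 2 of day 60 held 4120.2 CPM of them, against 1935 CPM in replicate 1 and 641 and 812 CPM in the knockout. Its 6 endothelial markers summed to 128 CPM, against 9.85 CPM in replicate 1 and 27.72 and 29.01 CPM in the knockout. Wildtype replicates 1 and 2 of day 10 held 828 and 1222 CPM of 8 neural crest markers, against 60.8 and 63.2 CPM in replicates 3 and 4. Their neuronal markers summed to 1920 and 2166 CPM, against 655 and 692 CPM in replicates 3 and 4 and 636 to 945 CPM in the knockout. Their mesenchyme markers summed to 962 and 1275 CPM, against 292 and 278 CPM in replicates 3 and 4 and 221 to 377 CPM in the knockout. The part of these libraries and cells in the cathepsin values was not tested, and results that rest on them are given with and without them. In bulk RNA, fewer cells of a type and less RNA per cell cannot be told apart.

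CTSF, a papain-type cysteine protease, was present in every wildtype library and close to absent in every knockout one. At day 10 the wildtype libraries held 592, 553, 460 and 375 counts of CTSF and the knockout libraries 8, 16, 14 and 13. On the CPM scale these were 26.4, 28.8, 23.6 and 21.4 against 0.465, 0.751, 0.849 and 0.836. At day 60 the wildtype libraries held 560 and 629 counts, or 29.2 and 31.7 CPM, and the knockout libraries 4 and 24 counts, or 0.226 and 1.22 CPM. No knockout library came near a wildtype library at either day, while the pair of day 60 knockout libraries differed more between themselves than the 4 of day 10.

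Summed over libraries and scaled by depth, wildtype CTSF was 34.8 times the knockout level at day 10, with a 95% interval of 26.4 to 46.9. At day 60 the ratio was 40.7, with an interval of 28.0 to 61.4. These intervals cover counting error only. By mean CPM, which weights libraries equally, the knockout level was 2.89% of the wildtype level at day 10 and 2.37% at day 60. The fitted log2 fold changes were -5.10 at day 10 and -5.36 at day 60. The day 60 value was -4.63 without knockout replicate 1 and -7.02 without knockout replicate 2, so its size rests on which of those libraries is kept. Within the label codes of day 10, the difference in mean log2 CPM was -5.30 for B16, -4.64 for B27 and -4.51 for B29.

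**Figure D1:**
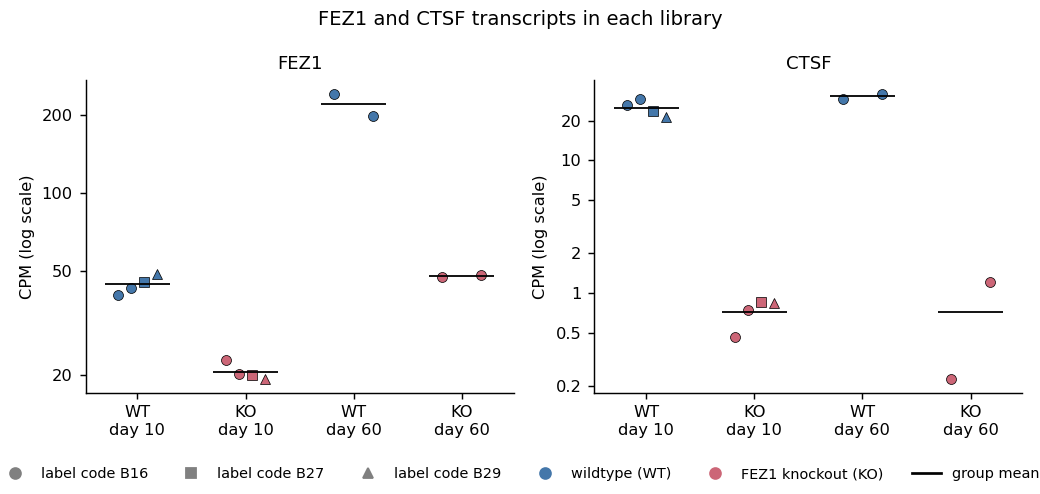
FEZ1 and CTSF levels in each of the 12 libraries, in CPM on a log axis, with 1 point per library, shape by label code, colour by genotype and a line at the group mean. CTSF lies between 21.4 and 31.7 CPM in wildtype libraries and between 0.226 and 1.22 CPM in knockout libraries.

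The CTSF gene is protein coding. In the GENCODE annotation on GRCh38, its exons cover 2896 bases in 11 blocks on the minus strand of chromosome 11, and no exon of another gene overlaps them. Its neighbours on the chromosome were examined next, counting 5 tested genes on each side. They were PELI3, DPP3, BBS1, ZDHHC24 and ACTN3 on one side and CCS, RBM14, RBM14-RBM4, RBM4 and RBM4B on the other. None of the 10 was called at day 10, where 0.124% of all genes tested were called, and none at day 60, where 0.0225% were. A gene is called when its adjusted p is below 0.05 (edgeR quasi-likelihood F test, Benjamini-Hochberg over 17757 genes). At an unadjusted p below 0.05 there were 2 of 10 at day 10, beside 12.3% of all genes, and 0 of 10 at day 60, beside 5.60% of all genes. The largest log2 fold changes at day 10 were 0.71 ± 0.23 (SE) for ACTN3, a muscle actinin (adjusted p = 0.247), and 0.35 ± 0.15 for BBS1, a cilium gene (adjusted p = 0.367). At day 60 they were -0.69 ± 0.47 for ACTN3 and -0.37 ± 0.49 for the read-through gene RBM14-RBM4, both with an adjusted p of 1. With so few genes called at all, the lack of a call does not set the neighbours apart. Their log2 fold changes ran from -0.22 to 0.71 at day 10 and from -0.69 to 0.17 at day 60. Those of CTSF were -5.10 and -5.36.

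The genes whose log2 CPM followed CTSF most closely over the 12 libraries were not cathepsins. They were LINC00680-GUSBP4 (Pearson r = 0.972), ZNF835 (0.959), PEG3 (0.956), CXCL11 (0.950) and GUSBP4 (0.947). ZNF835 and PEG3 encode zinc finger proteins and CXCL11 a chemokine, and GUSBP4 is a pseudogene that LINC00680-GUSBP4 overlaps, so their reads could be shared. All are weakly expressed, at 0.691 to 8.18 CPM on average in wildtype day 10 libraries and at 0 to 0.575 CPM in knockout ones. These r values describe 12 libraries in which genotype separates CTSF into high and low, and the list depends on the measure. With a prior count of 0.5 in place of 2, 4 of the 5 genes stayed among the top 5, and with Spearman's rho 1 did. The other 8 cathepsins tested had r between -0.26 for CTSB and 0.10 for CTSC, and FEZ1 had 0.64.

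The cathepsins were then compared by level per kilobase of exon, since counts grow with gene length. In wildtype day 10 organoids CTSD was at 30.2 ± 1.62 CPM per kilobase (SD, n = 4) and CTSB at 25.0 ± 2.05. CTSL followed at 12.4 ± 1.21, CTSF at 8.65 ± 1.12, CTSZ at 7.95 ± 0.807, CTSC at 6.12 ± 1.51, CTSK at 5.92 ± 0.768 and CTSA at 4.29 ± 0.386. CTSH was at 1.60 ± 0.271 and CTSS at 0.0266 ± 0.0321. By mean, CTSF was the fourth of 10 in wildtype day 10 organoids. The order was not resolved between CTSF and either CTSZ or CTSC, between CTSZ and CTSC, or between CTSC and either CTSK or CTSA, whose means differed by less than their SDs together.

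In wildtype day 60 organoids CTSF was again the fourth, at 10.5 ± 0.625 CPM per kilobase (n = 2), below CTSD at 26.1 ± 1.55, CTSB at 22.4 ± 6.60 and CTSL at 11.9 ± 1.15. The levels of CTSB and CTSD, of CTSL and CTSF, and among CTSA, CTSZ, CTSC and CTSH overlapped within their SDs there. In the knockout CTSF was the ninth of 10 at both days, at 0.250 ± 0.0617 CPM per kilobase at day 10 and 0.250 ± 0.242 at day 60, with CTSS alone below it, though at day 60 by less than their SDs together. CTSB and CTSD led in the knockout at day 10, at 36.6 ± 6.52 and 35.8 ± 10.8, and could not be ordered. Lengths are the union of annotated exons on GRCh38, whereas the reads were mapped to hg19 with an annotation that is not given in the sources used here.

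At day 10, none of the 8 other cathepsins tested passed the test between genotypes. Over all genes tested, 0.124% were called, 0.0394% higher and 0.0845% lower in the knockout. Higher values in the knockout were seen for 7 of the 8, beside 48.8% of all genes, and a lower value for CTSC. The median log2 fold change of the 8 was 0.25, against -0.01 over all genes. An unadjusted p below 0.05 was found for 2 of 8, CTSB and CTSK, beside 12.3% of all genes. The values of the 8 ran from -0.03 to 0.55. With so few genes called at all, the lack of a call does not set them apart.

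CTSB, an endopeptidase and dipeptidyl carboxypeptidase that is among the most abundant cathepsins of most tissues, had the largest value of the 8. Wildtype day 10 libraries held 208, 174, 177 and 184 CPM and knockout libraries 338, 222, 257 and 271 CPM. Every knockout library lay above every wildtype one, a separation seen upward in 2.33% of all genes. The log2 fold change was 0.55 ± 0.16 (SE, n = 4 per genotype, 1.46-fold; unadjusted p = 0.00488), and it missed the threshold after adjustment over all genes (edgeR adjusted p = 0.226). Within the label codes the knockout to wildtype ratio was 1.46 for B16, 1.45 for B27 and 1.48 for B29, so the difference was of like size in each. Without knockout replicate 1 the log2 fold change was 0.43 ± 0.14 (adjusted p = 0.392). CTSB was called by DESeq2 (adjusted p = 0.0384) and with the B27 and B29 libraries alone (edgeR adjusted p = 0.00253), and in none of the other 21 alternatives, whose range is 0.43 to 0.64. In the authors' deposited table, which compares FEZ1-null with wildtype organoids and names no day, CTSB has a log2 fold change of 0.571 and an adjusted p of 0.0544. DESeq2 gave 0.571 at day 10 and -0.385 at day 60 here. The deposited value thus matches that of day 10 and is not separate evidence.

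CTSK, a collagen-degrading protease known from bone-resorbing osteoclasts, was next. Its wildtype libraries held 12.4, 12.4, 10.4 and 9.53 CPM at day 10 and its knockout libraries 19.7, 16.1, 11.8 and 12.5 CPM. The groups overlapped, because knockout replicate 3 lay below wildtype replicates 1 and 2. The log2 fold change was 0.43 ± 0.18 (edgeR adjusted p = 0.363), and 0.27 ± 0.15 without knockout replicate 1. Within the codes the difference in mean log2 CPM was 0.52, 0.19 and 0.39 for B16, B27 and B29, above 0 in each.

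CTSH, an aminopeptidase, ranged from 7.71 to 11.5 CPM in wildtype and from 9.58 to 17.3 CPM in knockout day 10 libraries. Its log2 fold change was 0.38 ± 0.29 (edgeR adjusted p = 0.656), and the groups overlapped. CTSL, a broad endopeptidase, ranged from 25.5 to 32.3 CPM in wildtype and 28.7 to 40.7 CPM in knockout (0.18 ± 0.13, edgeR adjusted p = 0.637). CTSZ, a carboxypeptidase, ranged from 14.6 to 18.5 CPM in wildtype and 15.3 to 26.99 CPM in knockout (0.25 ± 0.23, edgeR adjusted p = 0.716). For each of these genes knockout replicate 1 was the highest library, 1.64, 1.32 and 1.62 times the mean of the other knockout libraries. CTSC, a dipeptidyl peptidase that activates granule serine proteases of immune cells, ranged from 53.2 to 86.5 CPM in wildtype and 61.5 to 78.5 CPM in knockout (-0.03 ± 0.18, edgeR adjusted p = 0.963). The lowest CTSC values were those of both wildtype B16 libraries.

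The aspartic and the serine member showed the same dependence on that library. CTSD, the major aspartic protease of the lysosome, held 88.8, 92.1, 100.3 and 96.6 CPM in wildtype and 161, 95.2, 103 and 87.9 CPM in knockout at day 10. The log2 fold change of CTSD was 0.24 ± 0.17 (edgeR adjusted p = 0.624) and 0.01 ± 0.08 without knockout replicate 1. CTSA held 28.2, 25.4, 23.5 and 23.4 CPM in wildtype and 37.6, 25.2, 24.6 and 23.3 CPM in knockout, with a log2 fold change of 0.14 ± 0.17 (edgeR adjusted p = 0.789) that became -0.04 ± 0.12 without that replicate. The other 3 knockout libraries held 87.9 to 103 CPM of CTSD and 23.3 to 25.2 CPM of CTSA, within or just outside the wildtype range. Exons of CTSA share 1038 bases with NEURL2 and 200 bases with PLTP on the opposite strand, and exons of CTSD share 493 bases with AC068580.3 opposite and 1304 bases with AC068580.4 on the same strand. Whether counting used the strand is not given in the sources used here, so reads of these positions cannot be assigned with certainty.

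**Figure D2:**
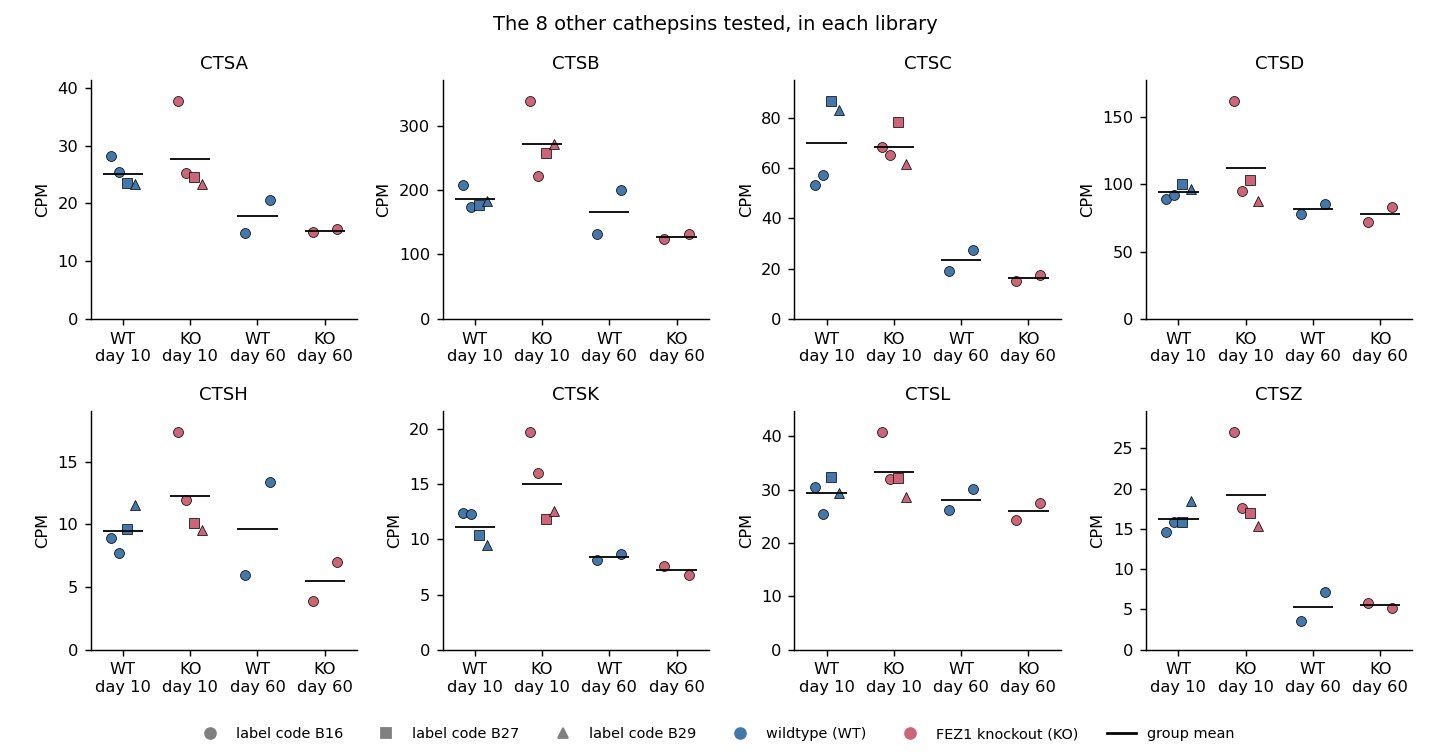
Levels of the 8 other cathepsins tested in each of the 12 libraries, in CPM from 0, with 1 point per library, shape by label code, colour by genotype and a line at the group mean. CTSB at day 10 is the gene whose 4 knockout libraries, from 222 to 338 CPM, all lie above its 4 wildtype libraries, from 174 to 208 CPM.

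Split by label code, the day 10 differences of CTSA, CTSC, CTSD, CTSH, CTSK, CTSL and CTSZ were highest in the B16 libraries. There the knockout minus wildtype difference in mean log2 CPM was 0.20, 0.27, 0.45, 0.79, 0.52, 0.37 and 0.52 in that order. In B27 those of CTSC, CTSD, CTSH, CTSL and CTSZ lay between -0.14 and 0.10, and in B29 between -0.43 and -0.03. CTSA was at 0.06 in B27 and -0.01 in B29, and CTSK at 0.19 and 0.39. The B16 libraries of day 10 include knockout replicate 1 and wildtype replicates 1 and 2, which stood apart as described above. Their part in these differences was not tested. CTSB was the gene with a like value in all codes, at 0.52, 0.53 and 0.56. The B27 and B29 values come from 1 library per genotype each and have no replicate check.

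**Figure D3:**
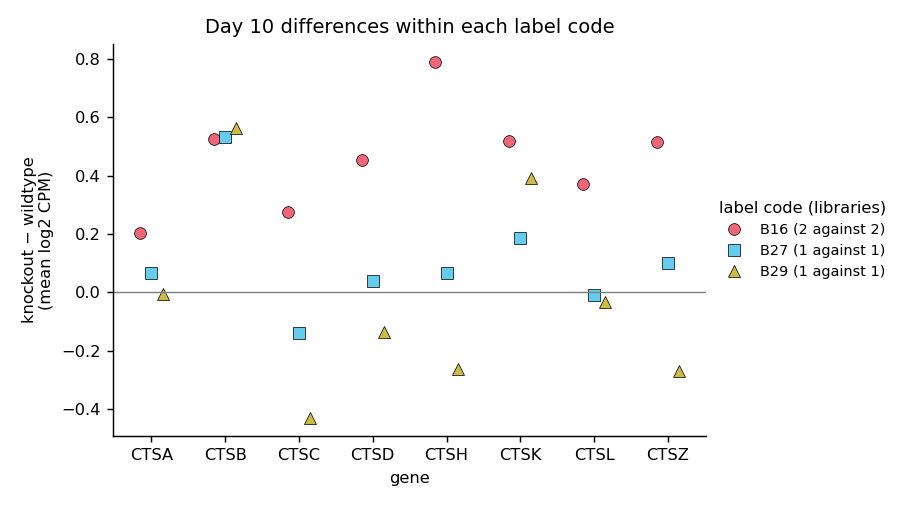
Knockout minus wildtype difference in mean log2 CPM (y axis) for the 8 other cathepsins (x axis) at day 10, within each label code, from 2 against 2 libraries for B16 and 1 against 1 for B27 and B29. CTSB lies at 0.52 to 0.56 in all codes, whereas CTSH runs from 0.79 in B16 to -0.26 in B29.

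CTSS, a protease of antigen-presenting cells, was barely counted. Its day 10 counts were 2, 1, 6 and 0 in wildtype and 1, 0, 5 and 1 in knockout, and its day 60 counts 6 and 30 in wildtype and 4 and 2 in knockout. A count of 0 allows up to 3 counts, or 0.171 CPM in the wildtype and 0.141 CPM in the knockout library concerned, by counting error alone. No difference between genotypes was detectable at this depth. The highest value came from wildtype replicate 2 of day 60, the library rich in mesenchyme and endothelial transcripts. The 15 microglia and macrophage markers summed to 5.39 to 8.43 CPM in wildtype and 5.53 to 17.7 CPM in knockout libraries of day 10, and to 5.78 to 9.89 CPM and 3.79 to 5.28 CPM at day 60. Between 6 and 13 of them were counted per library. TYROBP, C1QA and C1QC were at 0 throughout wildtype day 10, TREM2 throughout knockout day 10, TREM2 and C1QA throughout wildtype day 60, and CX3CR1, TREM2, TYROBP, C1QA and C1QB throughout knockout day 60.

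At day 60, none of the 8 other cathepsins passed the test between genotypes, and the values leaned the other way. Over all genes tested 0.0225% were called. Values were lower in the knockout for 7 of 8, beside 51.6% of all genes, with a median log2 fold change of -0.22 against -0.01 over all genes. An unadjusted p below 0.05 was found for 0 of 8, beside 5.60% of all genes. DESeq2 called 0 of 8, beside 0.816% of all genes.

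CTSB held 132 and 201 CPM in wildtype and 124 and 131 CPM in knockout at day 60, which are close in all but the high wildtype library. Its groups did not overlap, a separation that 22.4% of all genes tested showed downward at this group size. The log2 fold change was -0.38 ± 0.22 (n = 2 per genotype, edgeR adjusted p = 1) and -0.04 ± 0.24 without wildtype replicate 2. CTSH held 5.94 and 13.4 CPM in wildtype and 3.904 and 7.01 CPM in knockout, overlapping, with -0.82 ± 0.42 (edgeR adjusted p = 1), or -0.12 ± 0.43 without that library. CTSC held 19.2 and 27.3 CPM in wildtype and 14.9 and 17.5 CPM in knockout, without overlap, with -0.52 ± 0.26, or -0.24 ± 0.31 without it. These 3 largest day 60 values all shrank by more than 1.5 times when 1 wildtype library was left out. The remaining values were -0.22 ± 0.26 for CTSK, whose groups did not overlap, -0.21 ± 0.24 for CTSA, -0.12 ± 0.19 for CTSL, -0.07 ± 0.25 for CTSD and 0.04 ± 0.34 for CTSZ, each with an edgeR adjusted p of 1. CTSZ was at 0.63 ± 0.35 without wildtype replicate 2.

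**Figure D4:**
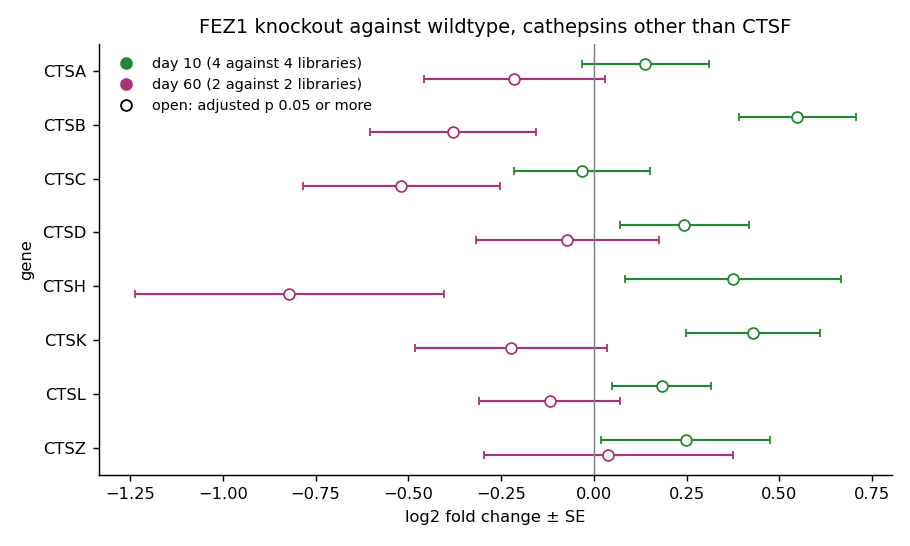
Log2 fold change ± SE (x axis) of FEZ1 knockout against wildtype for the 8 other cathepsins (y axis), at day 10 from 4 libraries per genotype and at day 60 from 2, with open points for an adjusted p of 0.05 or more. Every point is open, and CTSB has the highest day 10 value (0.55) while CTSH has the lowest day 60 value (-0.82).

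Whether the genotype difference itself changed with age was tested as an interaction. None of the 8 was called (edgeR), beside 0% of all genes, and DESeq2 called 0 of 8, beside 0.441% of all genes. All 8 had a negative value, meaning a knockout to wildtype ratio that was lower at day 60 than at day 10, beside 47.5% of all genes, with a median of -0.42 against 0.02. An unadjusted p below 0.05 was found for 2 of 8, CTSB (-0.93 ± 0.27, edgeR adjusted p = 0.526) and CTSH (-1.20 ± 0.51, edgeR adjusted p = 0.677), beside 7.15% of all genes. Without both libraries that stand apart, a setting chosen after the data were seen, CTSB was at -0.47 ± 0.18 and CTSH at -0.28 ± 0.42. CTSA and CTSZ then turned positive, at 0.08 ± 0.18 and 0.59 ± 0.24. The same-sided values thus rest in part on 1 high knockout library of day 10 and 1 high wildtype library of day 60.

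The change with culture time was not used to choose the genes, apart from the low knockout level of CTSF at both days. Here several cathepsins passed the test. In wildtype organoids 2 of 9 tested were called from day 10 to day 60, both lower, beside 55.4% of all genes called and 26.1% called lower. In the knockout 6 of the 8 tested other than CTSF were called, all lower, beside 57.6% of all genes called and 26.9% called lower. No cathepsin was called higher in either genotype, while 29.3% of all genes were in wildtype and 30.7% in the knockout. The difference between genotypes in these time courses is the interaction above, in which none was called.

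CTSC and CTSZ fell in both genotypes. CTSC went from 69.9 ± 17.2 to 23.3 ± 5.78 CPM in wildtype, a log2 fold change of -1.59 ± 0.24 (edgeR adjusted p = 0.000227). The wildtype days did not overlap, a separation seen downward in 35.3% of all genes tested. In the knockout CTSC went from 68.3 ± 7.31 to 16.2 ± 1.83 CPM, or -2.07 ± 0.25 (edgeR adjusted p = 4.14e-05). CTSZ went from 16.2 ± 1.64 to 5.35 ± 2.56 CPM in wildtype (-1.59 ± 0.31, edgeR adjusted p = 0.00105) and from 19.2 ± 5.27 to 5.505 ± 0.457 CPM in the knockout (-1.80 ± 0.31, edgeR adjusted p = 0.000462). Both calls held in all 21 alternatives in each genotype, at -1.25 to -2.20 for CTSC and -1.19 to -2.19 for CTSZ.

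CTSB, CTSK, CTSH and CTSA were called lower with time in the knockout. CTSB went from 272 ± 48.5 to 128 ± 5.03 CPM (-1.09 ± 0.20, edgeR adjusted p = 0.000815), CTSK from 15.04 ± 3.63 to 7.20 ± 0.623 CPM (-1.06 ± 0.23, edgeR adjusted p = 0.00225) and CTSA from 27.7 ± 6.68 to 15.3 ± 0.426 CPM (-0.86 ± 0.22, edgeR adjusted p = 0.00553). CTSH went from 12.2 ± 3.55 to 5.46 ± 2.20 CPM (-1.16 ± 0.38, edgeR adjusted p = 0.0201). The call of CTSH ended without knockout replicate 1 of day 60 (-0.81 ± 0.47, edgeR adjusted p = 0.188), and the calls of CTSA, CTSB and CTSK held in all 21 alternatives. All 4 held without knockout replicate 1 of day 10, the library with the high values, at -0.97 for CTSB, -0.91 for CTSK, -0.95 for CTSH and -0.67 for CTSA.

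In wildtype organoids these 4 genes gave -0.16 ± 0.19 for CTSB, -0.41 ± 0.23 for CTSK, -0.50 ± 0.21 for CTSA and 0.03 ± 0.35 for CTSH, with edgeR adjusted p from 0.0642 for CTSA to 0.943 for CTSH. CTSH was at -0.67 ± 0.41 without wildtype replicate 2 of day 60. CTSD gave -0.21 ± 0.22 in wildtype (edgeR adjusted p = 0.422) and -0.53 ± 0.22 in the knockout (edgeR adjusted p = 0.0561). CTSL gave -0.06 ± 0.16 in wildtype (edgeR adjusted p = 0.763) and -0.36 ± 0.17 in the knockout (edgeR adjusted p = 0.0803). CTSD and CTSL, with CTSB among the highest per kilobase, were thus not called with time in either genotype, although CTSD was called in the knockout in 6 and CTSL in 2 of 21 alternatives.

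CTSF was chosen because it was nearly lost in the knockout at both days, so its knockout values with time are a description without a test. In wildtype its change did not pass the test, and CTSF went from 25.1 ± 3.23 to 30.5 ± 1.81 CPM (0.28 ± 0.34, edgeR adjusted p = 0.497). The wildtype libraries of the days did not overlap, a separation seen upward in 37.2% of all genes tested. In the knockout CTSF was at 0.725 ± 0.179 CPM at day 10 and 0.723 ± 0.702 CPM at day 60, a log2 fold change of 0.02 ± 0.46. That value was -1.65 without the day 60 library of 24 counts and 0.74 without the other one. CTSF was the cathepsin with the highest wildtype value in this comparison, where 7 of the 9 lay below 0, beside 50.2% of all genes.

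**Figure D5:**
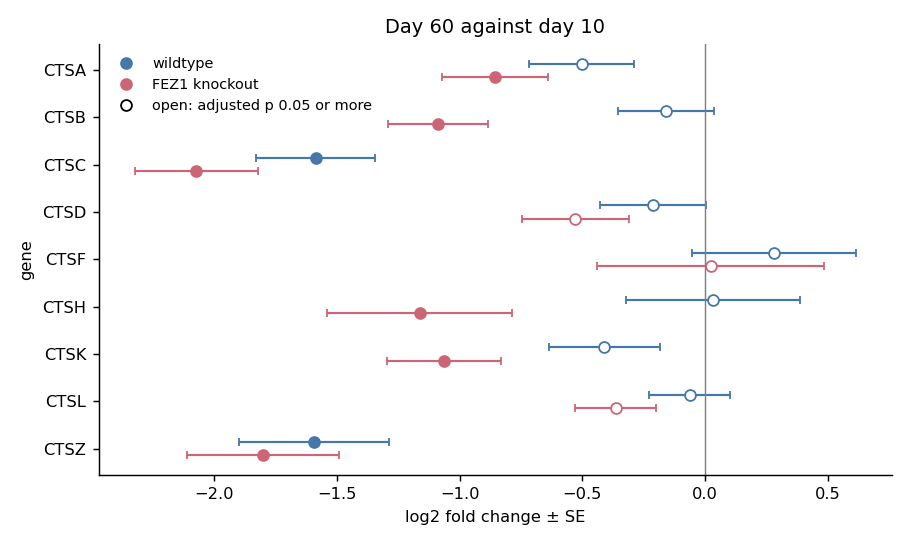
Log2 fold change ± SE (x axis) of day 60 against day 10 for the 9 cathepsins tested (y axis), in wildtype and FEZ1 knockout organoids, with filled points for an adjusted p below 0.05. CTSC and CTSZ are filled in both genotypes, CTSA, CTSB, CTSH and CTSK in the knockout, and CTSF lies near 0 in both.

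Genes that act with the cathepsins were read from lists of 5 to 21 genes. Between genotypes none of the 76 tested genes of these 8 lists was called, at day 10, at day 60 or in the interaction (edgeR). Over all genes tested 0.124%, 0.0225% and 0% were called in these comparisons. With so few calls, the lack of one does not set the lists apart. At an unadjusted p below 0.05 there were 8 at day 10, or 10.5% beside 12.3% of all genes, 0 at day 60 beside 5.60%, and 2 in the interaction, or 2.63% beside 7.15%. DESeq2 called 3 at day 10, 1 of them a regulator and 2 hydrolases, or 3.95% beside 2.68% of all genes. It called 0 in the other comparisons, beside 0.816% of all genes at day 60 and 0.441% in the interaction. Among 5 further cathepsin genes CTSO, CTSV and CTSW could be tested, and the smallest p values at day 10 were those of CTSV (0.53 ± 0.25, edgeR adjusted p = 0.434), a relative of CTSL, and CTSW (-0.39 ± 0.45, edgeR adjusted p = 0.771). CTSE had 10 counts in wildtype replicate 2 of day 60 and at most 2 in any other library. Of 9 cystatins, the inhibitors of cysteine cathepsins, CST3 and CSTB could be tested, at -0.07 ± 0.21 and 0.12 ± 0.21 at day 10 and -0.04 ± 0.30 and 0.10 ± 0.29 at day 60. The inhibitors thus gave values near 0 at both days.

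For delivery and activation, 10 of 10 genes were tested. The smallest p values at day 10 were those of GLB1 (0.30 ± 0.11, edgeR adjusted p = 0.306) and NEU1 (0.33 ± 0.18, edgeR adjusted p = 0.494), the hydrolases that cathepsin A shields. At day 60 they were those of NAGPA (-0.52 ± 0.27), which uncovers the mannose 6-phosphate tag, and NEU1 (-0.32 ± 0.25), both with an edgeR adjusted p of 1. Of 5 regulators of lysosomal genes, MITF came closest to the threshold at day 10, with a mean of 1.39 ± 0.506 CPM in the wildtype and of 4.16 ± 0.900 CPM in the knockout (1.57 ± 0.27, edgeR adjusted p = 0.0553). MITF also serves as a pigment cell marker, and the summed pigment markers of that group are given above; their part in its value was not tested. Of 11 other genes of neuronal ceroid lipofuscinosis, those with the smallest p at day 10 were ATP13A2 (0.55 ± 0.20, edgeR adjusted p = 0.303) and CLN6 (0.31 ± 0.18, edgeR adjusted p = 0.545). None of these 11 genes was called between genotypes, beside 0.124% of all genes at day 10 and 0.0225% at day 60.

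Among 21 other lysosomal hydrolases the smallest day 10 p values were those of DNASE2 (0.65 ± 0.18) and LIPA (-0.48 ± 0.13), both with an edgeR adjusted p of 0.226, and 14 of 21 had values above 0. Among 18 subunits and partners of the V-ATPase, the pump that acidifies lysosomes, values ran from -0.22 to 0.30 at day 10 and from -0.20 to 0.11 at day 60. Among 6 lysosomal membrane and cholesterol genes, NPC2 was at 0.43 ± 0.17 (edgeR adjusted p = 0.324) and SCARB2 at -0.31 ± 0.15 (edgeR adjusted p = 0.439) at day 10. At day 60 the 6 lay between -0.17 and 0.14. In the main edgeR fit, none of these list genes or of the 8 other cathepsins tested was called between genotypes. Over all genes, 0.124% were at day 10 and 0.0225% at day 60. CTSF, which chose the group, is left out of this count, and the alternatives that called CTSB are given above.

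With culture time members of the same lists were called in both directions. The counts that follow stand beside 29.3% of all genes called higher and 26.1% called lower in wildtype, and 30.7% and 26.9% in the knockout. CTSO and CTSV fell in both genotypes, by 1.25 ± 0.23 and 1.91 ± 0.35 on the log2 scale in wildtype (edgeR adjusted p = 0.000690 and 0.000706). Of the 10 sorting and activation genes 2 rose and 4 fell in wildtype, and 2 rose and 6 fell in the knockout. LGMN, which cleaves cathepsin precursors, fell by 1.496 ± 0.15 in wildtype and 1.68 ± 0.15 in the knockout, and IGF2R, a mannose 6-phosphate receptor, fell by 1.15 ± 0.18 and 1.12 ± 0.18. GNPTAB, which makes the mannose 6-phosphate tag, rose by 1.16 ± 0.20 and 1.26 ± 0.20. The largest edgeR adjusted p of these 6 values was 0.000494. Of the ceroid lipofuscinosis genes 3 rose and 3 fell in wildtype and 3 rose and 5 fell in the knockout, led by CLN6 at -3.42 ± 0.28 and -3.55 ± 0.28 (edgeR adjusted p = 2.59e-06 and 2.07e-06).

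Of the 18 V-ATPase genes 11 were called higher and 0 lower in wildtype, beside 29.3% and 26.1% of all genes. In the knockout 8 were called higher and 1 lower, beside 30.7% and 26.9%. ATP6V1G2, a subunit form of neurons, rose by 3.64 ± 0.27 and 3.32 ± 0.27 (edgeR adjusted p = 1.33e-06 and 2.36e-06). The neuronal markers summed to 636 to 2166 CPM at day 10 and 4051 to 5370.0 CPM at day 60, and their part in this was not tested. Of 21 hydrolases 5 rose and 8 fell in wildtype, and 5 rose and 12 fell in the knockout, with IDUA at 3.36 ± 0.25 and 2.76 ± 0.25. Of the regulators TFEC, TFEB, MITF and TFE3 were called higher in wildtype and TFEC and TFEB in the knockout, none of them lower. TFEB was at 2.32 ± 0.39 in wildtype and 1.80 ± 0.39 in the knockout (edgeR adjusted p = 0.000416 and 0.00216). TFEC had no count in the wildtype libraries of day 10, and 20 and 110 counts in those of day 60. LAMP1 and NPC2 fell and SCARB2 rose in both genotypes, and neither CST3 nor CSTB was called. The cathepsins called with time were all lower. They were 2 of 9 in wildtype, beside 26.1% of all genes called lower, and 6 of the 8 other than CTSF in the knockout, beside 26.9%. The wildtype count is thus near the share over all genes. The V-ATPase genes and regulators called in wildtype were all higher, while 1 V-ATPase gene was called lower in the knockout. CTSS, which did not pass the main filter, was called higher in wildtype in 5 alternatives, as given in the closing section.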

How the data were processed

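The authors deposited raw counts per gene, whole numbers for 12 bulk RNA-seq libraries of 15668253 to 22745658 counts in all. hg19, STAR, HTSeq and DESeq2 are named in the submitters' processing notes, but the versions, the annotation and the strand setting are not stated there. The deposited normalized values, a signal equal to the count divided by 1 factor per library, were checked against the counts and not tested. The authors' deposited comparison holds log2 fold changes with SEs, a test score, p-values and adjusted p-values, quoted for CTSB only.

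Counts were tested with edgeR 4.0.16 in R 4.3.3 (limma 3.58.1): TMM scaling, filterByExpr over 4 groups of genotype and day, robust quasi-likelihood F tests on all 12 libraries, and Benjamini-Hochberg adjustment over 17757 genes. All tests are two-sided, an SE is the log2 fold change divided by the root of F, and log2 CPM uses a prior count of 2. The procedure was tested on simulated data. DESeq2 1.42.0 and other alternatives are given in the closing section. The members and lists were chosen with earlier results of these data known. The text names all members, FEZ1, genes most correlated with CTSF and, per list, those with the smallest p in each comparison. Leaving out a library of day 60 leaves 1 library in its group, which is then assumed to vary like the others.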

Additional observations from a re-analysis of the deposited data

Results flagged for a closer look

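CTSA in knockout replicate 1 of day 10 stood at 37.6 CPM, far above the other 3 knockout libraries of that day, which held 23.3 to 25.2 CPM. Its gap to the nearest of them took up 0.866 of the range of the group, above Dixon's limit for 4 samples. FEZ1 and the cathepsins gave 22 groups of 4 libraries, of which this was the 1 past the limit, and chance alone passes about 1 in 20. The same library was the highest of day 10 for 7 of the 8 cathepsins other than CTSF.

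CTSB was higher in every knockout than in every wildtype library at day 10 and lower in every one at day 60. At day 60 the nearest libraries, wildtype replicate 1 and knockout replicate 2, were at 131.6 and 131.5 CPM. The test of this difference between days gave -0.93 ± 0.27 on the log2 scale, with an edgeR adjusted p of 0.526, so the opposite directions did not pass the test. Without wildtype replicate 2 of day 60 the value was -0.59 ± 0.28.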

How the results depend on the processing

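The counts of called cathepsins other than CTSF between genotypes were 0 at day 60 and in the interaction in all 20 alternatives each. At day 10 the count was 0, and 1 with DESeq2 and 1 with the B27 and B29 libraries alone, CTSB both times. With time it was 2 in wildtype, but 4 with a replicate block over both days (CTSA, CTSC, CTSK and CTSZ) and 4 without both libraries that stand apart (CTSA, CTSB, CTSC and CTSZ). It was 3 in 8 further alternatives, the added gene being CTSA without knockout replicate 1 of day 10 and with the groups compared alone, CTSK with B16 alone, and CTSS in the other 5. In the knockout it was 6 and ran from 5 to 8. CTSS was called higher in those 5, unlike the other genes. The knockout counts with time were taken over all members, CTSF among them, although its values there are described without a test.

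Values between genotypes that changed sign were all below the threshold. Day 10 values without 1 library ran from -0.044 to 0.21 for CTSA and from -0.14 to 0.087 for CTSC. With the B27 and B29 libraries alone CTSD was at -0.031, CTSH at -0.088, CTSL at -0.0074 and CTSZ at -0.072, and with the B16 libraries alone CTSC was at 0.23. Without both libraries that stand apart, CTSA was at -0.045 at day 10, 0.032 at day 60 and 0.077 in the interaction, and CTSZ at 0.59 in the interaction. Without 1 library, day 60 values ran from -0.41 to 0.032 for CTSA, from -0.17 to 0.031 for CTSD and from -0.37 to 0.63 for CTSZ, and the interaction of CTSZ from -0.62 to 0.39.

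With time in wildtype, values without 1 library ran from -0.50 to 0.10 for CTSB, from -0.67 to 0.49 for CTSH and from -0.17 to 0.018 for CTSL. CTSH was also at -0.10 with the replicate block, -0.16 without the B16 wildtype libraries of day 10 and -0.67 without both libraries that stand apart. CTSL was at 0.048 with library totals in place of TMM factors, which move the median of all genes to 0.10 in wildtype and 0.19 in the knockout, and at 0.0039 with the B16 libraries alone. CTSF in the knockout ran from -1.65 to 0.74 without 1 library. It was at -0.0039 with the groups compared alone, -0.066 with the replicate block, -0.0023 without the B16 wildtype libraries of day 10 and -0.14 without both that stand apart. The last settings were chosen after seeing the data, and the cause of these shifts was not tested.

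Over all genes the calls moved more. At day 10 there were 22, but 499 with DESeq2, 8 with a replicate block, 8 with a label code block, 1379 with B16 alone, 121 with B27 and B29 alone and 12 to 37 without 1 library. At day 60 there were 4, but 152 with DESeq2, 130 with day 60 libraries alone, 12 without the B16 wildtype libraries of day 10 and 2 to 357 without 1 library. In the interaction there were 0, but 78 with DESeq2, 908 with B16 alone and 193 without wildtype replicate 1 of day 60. Counts of called genes in the 8 lysosomal lists stayed within 1.5 times in 824 of 840 alternatives. These include the comparisons between genotypes and the interaction, where every main count was 0, so the figure says little about those. Same-numbered libraries of the 2 genotypes deviated together with r of 0.122, -0.0755, 0.297 and -0.0956 at day 10 and 0.123 at day 60, so the numbers were not taken as pairs, although same-numbered libraries of day 10 also share a label code. With 2 libraries per group, centring gives all day 60 pairs an r of the same size, 0.123 for same-numbered and -0.123 for other pairs. The replicate block left the day 10, day 60 and interaction counts at 0.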
